A study of Mus musculus with 18 samples.

Results

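Potassium channel genes were followed in the dorsal root ganglia of mice, which lie along the spine and hold the cell bodies of the sensory neurons that serve skin and muscle. The members were every gene of the deposited count table whose symbol begins with Kcn, which gave 80 of 15730 genes. Of these, 78 code for proteins and 2, Kcnmb4os1 and Kcnmb4os2, are annotated as antisense RNAs at the Kcnmb4 locus. The study compared 6 groups of 3 samples 24 hours after surgery, and each sample pooled the L4 to L6 ganglia of 2 C57BL/6 mice aged 6 to 8 weeks. Sciatic nerve injury was given with saline (SNA_Saline) or with 30 mM N-acetyl-cysteine, a thiol antioxidant (SNA_NAC), and the sham procedure was given with saline (Sham_Saline) or with 13 mM hydrogen peroxide (Sham_H2O2). Injury of the spinal dorsal columns (DCA), which carry the central branches of these neurons, had laminectomy (LAM), the removal of bone over the cord, as its control. No group carried a transgene or an engineered allele, and what the laminectomy group received on its nerve is not given in the sources used here.

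Potassium channels let potassium leave the cell, which holds the resting potential near the potassium equilibrium and ends action potentials, so the set a sensory neuron expresses shapes how readily it fires. Voltage-gated pore subunits open on depolarization, silent subunits form working channels only together with other pore subunits, and auxiliary subunits change the gating and traffic of both. Calcium- and sodium-activated channels follow activity, inward rectifiers and 2-pore-domain channels set the resting state, and in ganglia some inward rectifiers belong to satellite glia and vessels rather than to neurons.

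All pore-forming members share a short stretch of coding sequence, the potassium channel signature, whose residues line the narrowest part of the pore. It was found in frame in all 65 pore-forming members, in duplicate in all 10 2-pore-domain (Kcnk) genes and once in the other 55. None of the 13 auxiliary members, from the Kcnab, Kcne, Kcnip and Kcnmb families, held it. The 6 windows below are those of pore-forming genes on which comparisons turn, and show the motif, whose residues also vary between channels at some positions, in its coding sequence. Each is printed 5′ to 3′ on the coding strand, with the 15 signature bases in capitals and 21 bases on each side, from the GENCODE M21 annotation of GRCm38 (mm10).
Kcnk18, chr19:59225512-59234838, plus strand, across the junction of exons 2 and 3: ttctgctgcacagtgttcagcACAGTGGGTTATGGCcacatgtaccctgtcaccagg
Kcnk12, chr17:87746813-87797091, minus strand, across the junction of exons 1 and 2: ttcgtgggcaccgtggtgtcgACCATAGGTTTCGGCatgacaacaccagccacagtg
Kcnd1, chrX:7824935-7831199, plus strand, across the junction of exons 1 and 2: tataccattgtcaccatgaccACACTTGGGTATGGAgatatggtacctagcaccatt
Kcnn1, chr8:70850636-70850692, minus strand, exon 5 of 10: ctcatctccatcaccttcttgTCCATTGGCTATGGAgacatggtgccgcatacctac
Kcnh7, chr2:62777322-62777378, minus strand, exon 8 of 16: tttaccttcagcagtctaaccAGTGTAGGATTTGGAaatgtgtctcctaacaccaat
Kcns3, chr12:11091554-11091610, minus strand, exon 3 of 3: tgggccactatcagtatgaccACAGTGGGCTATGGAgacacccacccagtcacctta

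The pore-forming members carried many distinct base sequences for the first signature, which can differ in residues as well as in codons. Over whole transcripts base composition ran from 36.6% G and C in Kcnt2, a sodium-activated channel, to 69.4% in Kcnk12, a 2-pore-domain channel. The first 60 coding bases of these 2 genes and of Kcnip4, an abundant auxiliary subunit, show the contrast, with G and C in capitals. They hold 53 such bases in Kcnk12, 33 in Kcnt2 and 25 in Kcnip4.
Kcnk12, chr17:87797395-87797454, minus strand, exon 1: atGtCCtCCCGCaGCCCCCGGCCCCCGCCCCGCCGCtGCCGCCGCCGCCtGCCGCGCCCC
Kcnt2, chr1:140246257-140246316, plus strand, exon 1: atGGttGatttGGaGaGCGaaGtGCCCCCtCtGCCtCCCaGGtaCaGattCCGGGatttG
Kcnip4, chr5:49285281-49285340, minus strand, exon 1: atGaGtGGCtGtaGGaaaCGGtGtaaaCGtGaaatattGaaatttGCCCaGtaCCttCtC

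The ganglia expressed the whole range of channel classes, and levels per transcript length are given as the deposited FPKM (fragments scaled to transcript length and to the size of the library). Mean FPKM over the 18 samples was at least 10 in 19 members, between 1 and 10 in 41 and below 1 in 20. The 10 voltage-gated auxiliary subunits held 39.6% of the summed FPKM of the members, and the 27 voltage-gated pore subunits held 32.9%. The median member had an FPKM of 14.6 among auxiliary subunits, 4.78 among pore subunits, 3.07 among calcium- or sodium-activated channels, 1.94 among 2-pore-domain channels, 1.12 among the 9 silent subunits and 0.979 among the 12 inward rectifiers. By these medians the auxiliary class stood above the pore class, though members ranged from 0.706 to 89.5 and from 0.168 to 71.1. No auxiliary subunit was set against the pore subunits it binds.

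The highest single level was that of Kcnab2, a beta subunit of Kv1 channels, at a mean FPKM of 89.5 (range over samples 48.7 to 169). Kcnip4 and Kcnip3, which bind A-type Kv4 channels, followed at 80.7 and 58.1, with Kcna1, the delayed rectifier found beside nodes of Ranvier, between them at 71.1 (54.3 to 89.6). The ranges of Kcnab2, Kcnip4 (53.7 to 107) and Kcna1 overlapped, so their order among themselves is not resolved. Next among pore subunits stood Kcnd1, an A-type channel, at 36.6 (28.4 to 48.3), Kcna6 at 30.4, Kcnd3 at 13.1 and Kcnc4, a fast-inactivating channel of nociceptors, at 10.5. Kcna4, the A-type channel of small sensory neurons, had a mean FPKM of 4.78, and Kcnd2, another A-type channel, one of 0.403. The M-current genes Kcnq5 and Kcnq3 stood at 3.18 and 1.02.

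Silent subunits were led by Kcns3 at 23.7, Kcns1 at 13.7 and Kcnv1 at 10.5, with Kcng4 at 3.44. Kcnmb1, a beta subunit of the large-conductance calcium-activated channel, stood at 14.8, and Kcnma1, which forms that channel's pore, at 1.93. Kcnt1, a sodium-activated channel, stood at 11.9, Kcnn1, a small-conductance calcium-activated channel, at 6.16, and Kcnn4, the intermediate-conductance one, at 3.13. Among inward rectifiers Kcnj10, the channel of satellite glia, led at 16.8, followed by Kcnj3, a subunit of G-protein-gated channels, at 5.67 and Kcnj12 at 5.02, and the vascular subunit Kcnj8 stood at 0.634. Among 2-pore-domain channels Kcnk1 led at 32.1, followed by Kcnk13 at 3.99 and the mechanosensitive Kcnk2 at 3.17, while Kcnk18 (TRESK, a background channel of sensory neurons) stood at 2.15, Kcnk10 at 1.71 and Kcnk12 at 0.374. The plot of FPKM by class shows these levels.

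**Figure D1:**
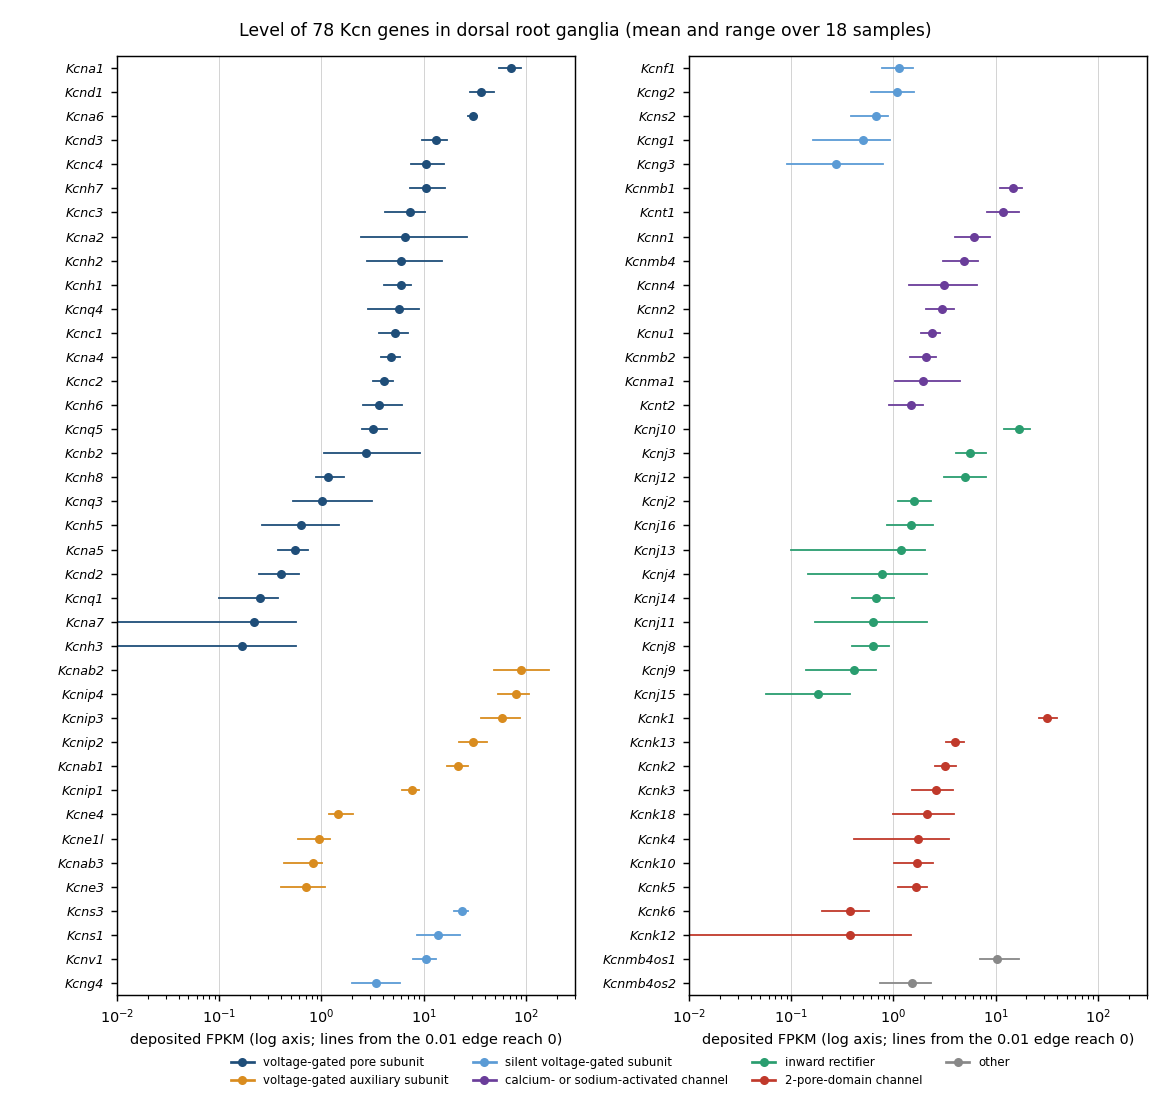
Mean FPKM of 78 of the 80 members over the 18 samples on a log axis (points), with the range over samples (lines), grouped by role class; lines that reach the left edge go to 0. Auxiliary subunits and a few pore subunits hold the highest values, from 89.5 for Kcnab2 downwards, and inward rectifiers lie mostly below 10.

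Total counts per sample ran from 6472476 to 42435331, and members had mean counts from 12.5 to 12106.5, with 16 of them under 10 counts in at least 1 library. Replicates were pools of different mice, and every pair of replicates differed by more than counting noise (chi-square per degree of freedom 3.96 to 112), so p-values measure the spread between pools. Neuron markers were measured in 10 of 10 cases, with a summed CPM (counts scaled to a common library size after TMM normalization) of 14107 to 19637 in Sham_Saline, 13724 to 14522 in SNA_Saline and 13386 to 14866 in SNA_NAC. The neuron list had a median log2 fold change of -0.39 in SNA_Saline (9 of 10 negative) and of -0.28 in SNA_NAC, and of -0.10 and -0.08 with the GC and length offsets described next, where Isl1 alone of the list was called, lower in both. Other cells were present too, and the summed CPM of skeletal muscle markers ran from 7.26 to 1299 in Sham_Saline and from 26.2 to 291 in SNA_Saline, and the part of either list in the results below was not tested. Of 8 injury genes, all 8 had a positive log2 fold change against Sham_Saline in both sciatic injury groups. In both groups 7 were called higher without the offsets, and all 8 with them. Among the 7 was Atf3, a transcription factor induced in injured neurons. It stood at 55.9, 72.6 and 59.4 CPM in Sham_Saline and 450, 420 and 462 CPM in SNA_Saline.

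Libraries differed in how counts depended on base composition, and the members are richer in G and C than other genes, with a median of 52.4% against 49.6%. The slope of log2 level on GC share, taken over genes that are not members, ran from -0.35 per 10 percentage points in Sham_H2O2 replicate 3 to 0.69 in Sham_Saline replicate 2. In that Sham_Saline replicate the 20 members richest in GC (57.1% or more) stood on average 0.97 above their mean over samples in log2 CPM. The value was 0.07 after offsets for GC share and transcript length. The offsets are fitted over all genes to remove such trends, so this shrinkage is largely built in. Sham_Saline replicate 2 was the highest of the 18 samples for 29 members, 36.2% of them against 26.6% of all genes, and for 8 members with the offsets. Sham_Saline replicate 1 was the highest for 18 members, 22.5% against 13.1% of all genes, and for 16 with the offsets, 20% against 9.66%. Results are therefore given without and with the offsets.

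**Figure D2:**
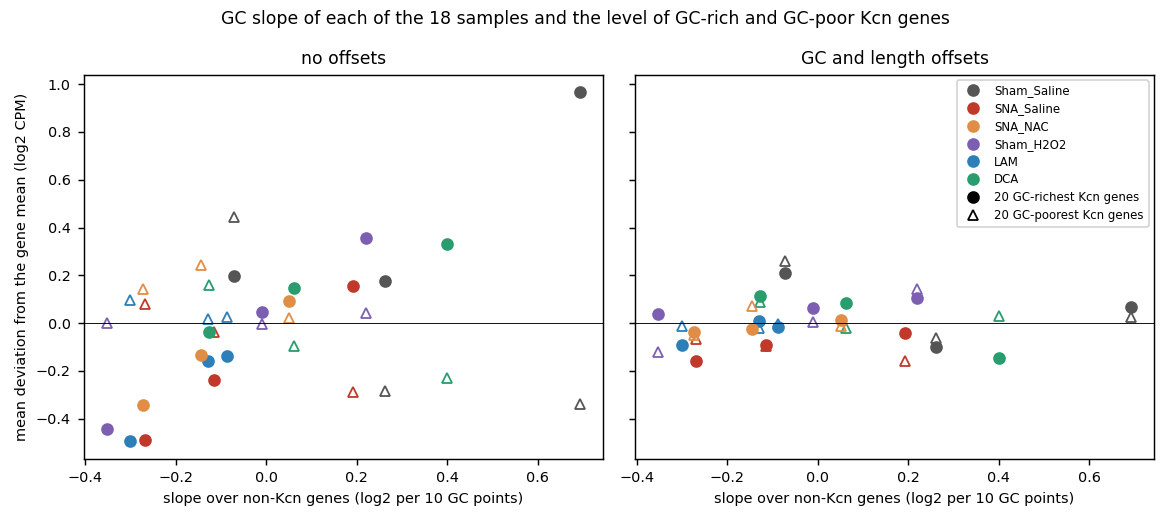
Slope of log2 level on GC share in each sample (horizontal axis, log2 units per 10 percentage points, from genes that are not members) against the mean log2 deviation of the 20 GC-richest (circles) and 20 GC-poorest members (triangles) from their mean over samples, without offsets on the left and with them on the right. Without offsets the circles rise with the slope up to 0.97 in Sham_Saline replicate 2. With offsets, which are fitted to remove such trends, that sample stands at 0.07.

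The comparison of SNA_Saline with Sham_Saline asked how the channel genes respond to an injury of the peripheral axon. Of the members 2 fell, among them Kcnk18 by 1.05 on the log2 scale, and none rose. These 2 calls (adjusted p under 0.05 over all genes in edgeR's quasi-likelihood test, the rule for every call below) are 2.5% of the members, beside 2.73% of all genes called and 0.572% called lower and 2.16% higher. The share called in either direction was thus near that of all genes. The share called lower, also 2.5%, was above that of all genes, but it rests on 2 calls. With the offsets 9 members passed, 8 of them lower, beside a background of 7.44% of all genes called, 2.27% called lower and 5.17% called higher. In a bulk tissue, fewer cells of a type and less RNA per cell cannot be told apart, here and in every comparison that follows.

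Kcnk18 had 11.96, 6.82 and 7.80 CPM in Sham_Saline and 4.09, 3.13 and 5.49 CPM in SNA_Saline. Every injured sample lay below every sham sample, with replicate 1 the highest of the sham samples. The log2 fold change was -1.05 ± 0.24 (SE, n = 3 and 3, edgeR adjusted p = 0.0264), and -0.96 ± 0.24 with the offsets (edgeR adjusted p = 0.0204). The adjusted p ran from 0.00239 to 0.288 over the 22 alternatives, of which 15 kept the call. Among the alternatives, the fit without a filter repeats the main fit, and the threshold of 0.10 reuses its p-values. Neither could lose a call, and both are counted as kept here and in every such tally below. No cause of the high values of Sham_Saline replicate 1 was tested.

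The members that passed only with the offsets are named because they did so. Their changes ranged from small ones between tight groups, as in Kcnip1, to larger ones on few reads, as in Kcnj11. Kcnh7, a channel of the ERG family, had 180, 172 and 169 offset-scaled CPM in Sham_Saline and 132, 141 and 129 in SNA_Saline. Without the offsets the same samples read 248, 118 and 124 against 137, 159 and 111 CPM and overlapped. Its log2 fold change was -0.27 (edgeR adjusted p = 0.488) without the offsets and -0.37 ± 0.07 (edgeR adjusted p = 0.00262) with them, so that this call rests on the correction. Kcnip1, an auxiliary subunit of Kv4 channels, had 49.7, 47.3 and 47.6 CPM in the sham and 41.1, 40.7 and 37.9 CPM after injury. Its groups did not overlap even without the correction, and its log2 fold change was -0.27 without (edgeR adjusted p = 0.0733) and -0.31 ± 0.06 with it (edgeR adjusted p = 0.00551).

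Kcns3, a silent subunit, had 79.3, 71.9 and 77.9 CPM in Sham_Saline and 68.8, 65.8 and 61.9 CPM in SNA_Saline. All injured samples lay below the sham samples, and the log2 fold change was -0.22 (edgeR adjusted p = 0.160) without and -0.30 ± 0.07 (edgeR adjusted p = 0.0159) with the offsets. Kcnmb1 had 62.3, 68.6 and 68.5 CPM against 47.9, 51.9 and 57.0 CPM. In CPM it did not overlap either, but on the offset scale it did, with 58.4, 77.8 and 73.8 against 46.9, 49.4 and 59.8, and its log2 fold changes were -0.35 (edgeR adjusted p = 0.0671) and, with the offsets, -0.43 ± 0.11 (edgeR adjusted p = 0.0219). Among inward rectifiers Kcnj12 had 18.02, 22.6 and 15.4 CPM in the sham and 10.4, 8.97 and 13.1 CPM after injury, a log2 fold change of -0.78 without (edgeR adjusted p = 0.0526) and -0.48 with the offsets (edgeR adjusted p = 0.0248). Kcnj11, the pore subunit of ATP-sensitive channels, rested on few reads, with 23, 60 and 13 counts in Sham_Saline and 8, 3 and 6 in SNA_Saline, and its log2 fold change was -1.80 (edgeR adjusted p = 0.0558) and, with the offsets, -1.38 ± 0.36 (edgeR adjusted p = 0.0262). The only member called higher with the offsets was Kcnmb4os2, at 0.80 ± 0.23 (edgeR adjusted p = 0.0426) against 0.06 (0.922) without. The sources used here do not say whether counting used strand, so reads of this RNA cannot be told apart from reads of Kcnmb4.

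By role class the direction was mostly downward, and it depended on the offsets. Of the 80 log2 fold changes 58 were negative, with a median of -0.24 against -0.03 over all genes. With the offsets 52 were negative, and the median was -0.15 against -0.01. Beside this the neuron markers had medians of -0.39 and, with the offsets, -0.10, whose part in the members' values was not tested. Without the offsets the silent subunits had the most negative class median, -0.51 with 9 of 9 values negative, and with them it was -0.18 with 7 of 9. With the offsets the most negative class median was that of the inward rectifiers. Pore subunits went from 23 of 27 negative (median -0.27) to 17 of 27 (-0.15), inward rectifiers from a median of -0.26 to -0.24, calcium- or sodium-activated channels from -0.34 to -0.16, 2-pore-domain channels from -0.24 to -0.09, and auxiliary subunits from 0.13 to -0.03.

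Most of the well-known neuronal channel genes did not pass the test. Kcna1 had a log2 fold change of 0.08 ± 0.17, Kcna4 one of -0.02 ± 0.16, Kcna6 one of -0.11 ± 0.08, Kcnd3 one of 0.07 ± 0.21 and Kcnd2 one of -0.16 ± 0.28. Those of Kcnq3 and Kcnq5 were -0.83 ± 0.47 and -0.21 ± 0.17, and Kcnc4 stood at -0.34 ± 0.18. Kcnab2 stood at -0.72 ± 0.26 (edgeR adjusted p = 0.145) and at -0.26 with the offsets. Kcna2, a Kv1 partner of Kcna1, had 91.8, 11.4 and 9.23 CPM in Sham_Saline and 13.3, 19.7 and 9.55 CPM in SNA_Saline, so its log2 fold change of -1.42 ± 0.66 (edgeR adjusted p = 0.219) came with 1 sham sample far above the rest. Kcns1 stood at -0.69 ± 0.21 without and -0.15 with the offsets, and Kcng4 at -0.54 ± 0.23 and -0.10, while Kcnv1 stood at -0.01 ± 0.16. Kcnma1 stood at -0.40 ± 0.42, Kcnn4 at -0.68 ± 0.33, Kcnj10 at 0.15 ± 0.14, Kcnj8 at -0.44 ± 0.24, Kcnk1 at -0.26 ± 0.10, Kcnk2 at -0.22 ± 0.14, Kcnk10 at 0.22 ± 0.21 and Kcnk13 at 0.26 ± 0.14, none of them called. Without Sham_Saline replicate 1 the values of Kcnma1, Kcna2 and Kcnq3 turned positive, to 0.58, 0.44 and 0.26, and none was called.

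Groups that did not overlap in CPM were seen for 26 members, 32.5% beside 19.1% of all genes, and 24 of these lay lower after injury (30% beside 8.8%). With the offsets these were 21 members (26.2%) beside 24% of all genes, 19 of them lower (23.8% beside 10.4%). The 2 higher ones in CPM were Kcnk13, a 2-pore-domain channel of microglia and macrophages, and Kcne3. DESeq2 called 11 members beside 5.49% of all genes. The count of calls depended on single libraries, since it was 15, 1 and 6 without Sham_Saline replicates 1, 2 and 3 (beside 16.2%, 1.48% and 2.75% of all genes called) and 0, 0 and 4 without SNA_Saline replicates 1, 2 and 3 (beside 1.11%, 1.32% and 2.99%). It was 0 with the lane number as a block, beside 2.03% of all genes.

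**Figure D3:**
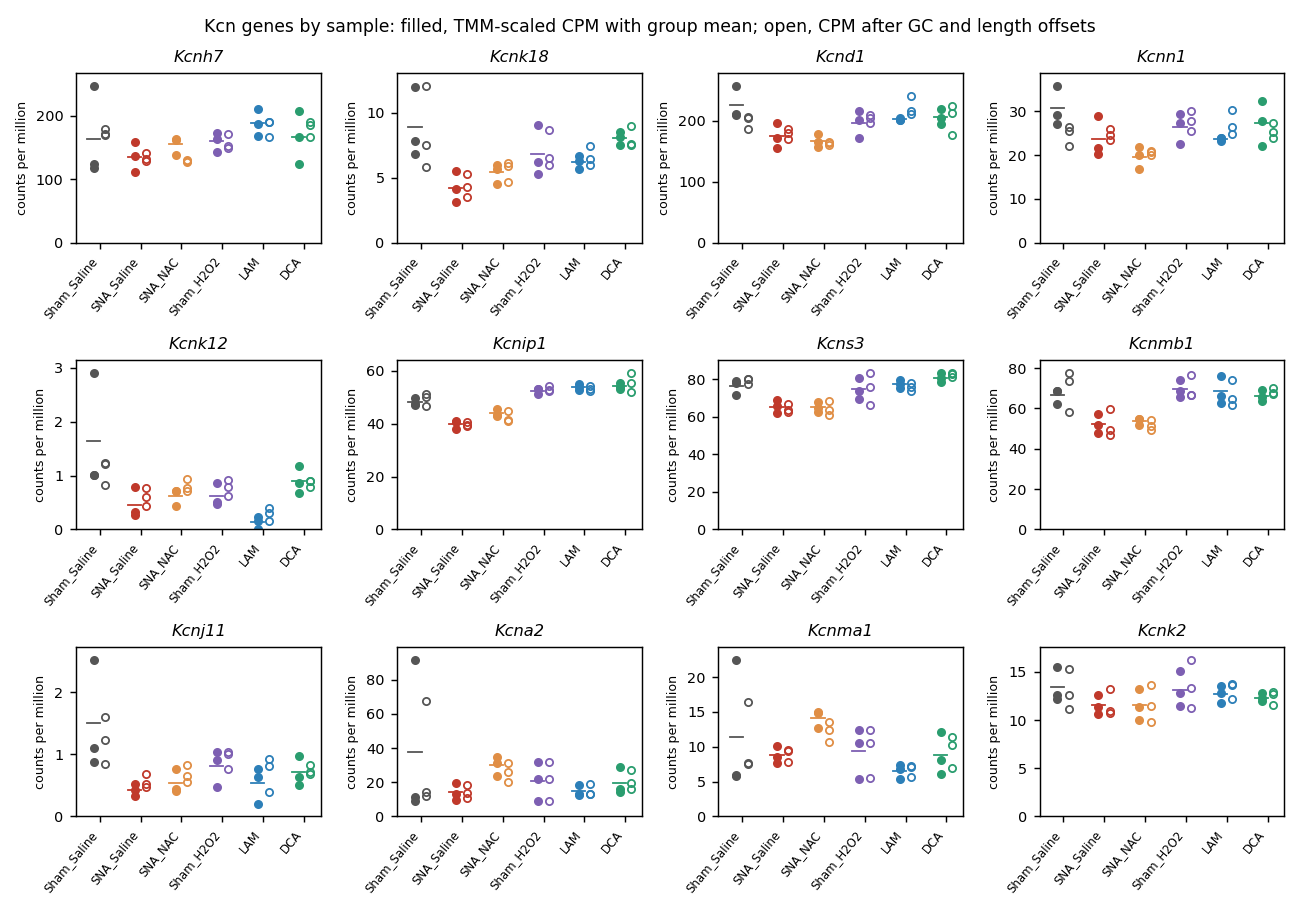
CPM of 12 members in each of the 18 samples, by group (filled points, with a line at the group mean), and the same after offsets for GC share and transcript length (open points). Kcnk18 lies lower in all SNA_Saline than in all Sham_Saline samples, while in Kcna2 a single Sham_Saline sample at 91.8 CPM stands above the others.

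The comparison of SNA_NAC with Sham_Saline asked the same of injury with the antioxidant, and it shares its control samples with the comparison above. Kcnd1 and Kcnn1 fell by 0.44 and 0.65 on the log2 scale, and no member rose. These 2 calls stood beside 3.32% of all genes called, 0.846% called lower and 2.47% called higher. The share called in either direction, 2.5%, was thus below that of all genes. The share called lower, also 2.5%, was above it, but it rests on 2 calls. With the offsets 8 members passed, all lower, beside 7.79% of all genes called, 2.59% called lower and 5.2% called higher.

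Kcnd1 had 210, 258 and 212 CPM in Sham_Saline and 179, 157 and 165 CPM in SNA_NAC. The groups were apart, and they stayed apart with the offsets at 187, 205 and 206 against 165, 164 and 160. The log2 fold change was -0.44 ± 0.11 (SE, n = 3 and 3, edgeR adjusted p = 0.0434) without and -0.29 ± 0.08 (edgeR adjusted p = 0.0298) with them, and over 22 alternatives the adjusted p ran from 0.00495 to 0.256 with 10 calls. In SNA_Saline the same gene had 173, 156 and 197 CPM and a log2 fold change of -0.37 ± 0.11 (edgeR adjusted p = 0.0923).

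Kcnn1 had 27.1, 35.8 and 29.2 CPM in Sham_Saline and 21.9, 16.8 and 19.99 CPM in SNA_NAC. All treated samples lay below all controls, and the log2 fold change was -0.65 ± 0.17 (SE, n = 3 and 3, edgeR adjusted p = 0.0456). With the offsets it was -0.25 ± 0.09 (edgeR adjusted p = 0.103), which ends the call, and over 22 alternatives the adjusted p ran from 0.00691 to 0.268 with 5 calls. In SNA_Saline its log2 fold change was -0.38 ± 0.17 without and 0.00 with the offsets.

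Besides Kcnd1, the members called with the offsets were Kcnh7 (log2 fold change -0.43), Kcnmb1 (-0.44), Kcnj3 (-0.31), Kcns3 (-0.30), Kcnt1 (-0.28), Kcnip1 (-0.22) and Kcnip2 (-0.21), with edgeR adjusted p from 0.000710 to 0.0432. They span pore, silent and auxiliary subunits of voltage-gated channels, an inward rectifier and both kinds of ion-activated channel. Kcnj3 had 32.2, 28.2 and 29.5 offset-scaled CPM in the sham and 23.4, 24.9 and 24.3 in SNA_NAC, but 36.4, 21.7 and 25.5 against 23.9, 28.6 and 27.3 CPM as counted. The separation of its groups thus appears only after the correction. Kcns3 read 68.0, 62.8 and 64.7 CPM in SNA_NAC against 79.3, 71.9 and 77.9 CPM in the sham, without overlap on either scale.

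Kcnk18, which fell in SNA_Saline, had a mean between those of Sham_Saline and SNA_Saline here. It had 6.00, 5.69 and 4.52 CPM, below all sham samples, with a log2 fold change of -0.71 ± 0.23 (edgeR adjusted p = 0.0949). In all, 54 of 80 log2 fold changes were negative both without the offsets (median -0.21, all genes -0.01) and with them (median -0.11). Groups did not overlap for 32 members, 40% beside 21.2% of all genes, with 27 lower (33.8% beside 9.68%), and with the offsets for 18 members (22.5% beside 24.9%), 14 of them lower (17.5% beside 11%).

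This comparison leaned on 1 library. Without Sham_Saline replicate 1 the call count was 28, 35% of the members beside 37.3% of all genes, of which 10 were higher and 18 lower. With the offsets it was 17, 21.2% beside 20.6%, with 6 higher and 11 lower. Among those then higher were Kcna2 (log2 fold change 1.53), Kcnma1 (1.29), Kcnq3 (1.02), Kcnb2 (0.97), Kcna1 (0.53) and Kcnj10 (0.51), and Kcnma1 and Kcna1 were also higher with the offsets (0.70 and 0.51). Without any other single library the count was 0 or 1, beside 1.37% to 2.07% of all genes. DESeq2 on all samples called 10 members beside 7.77% of all genes.

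The comparison of SNA_NAC with SNA_Saline asked what the antioxidant changed after injury, and no member was called. EdgeR gave 0 members with an adjusted p under 0.05 beside 0% of all genes, 0 members with an unadjusted p under 0.05 beside 2% of all genes, and DESeq2 called 0. In a fit of these 2 groups alone edgeR again called 0, but 11 of 77 members tested had an unadjusted p under 0.05, 10 of them higher with NAC, beside 8.6% of all genes. The smallest p belonged to Kcnb2, a delayed rectifier, with 3.96, 5.40 and 4.42 CPM in SNA_Saline and 9.79, 8.51 and 9.08 CPM in SNA_NAC. The groups were well apart, but the log2 fold change of 1.00 ± 0.50 had an unadjusted p of 0.0609 in edgeR, and Kcnb2 reached 20.7 CPM in Sham_Saline replicate 1. Kcnh5, a channel of the EAG family, followed with 1.85, 2.49 and 1.07 against 3.224, 2.82 and 3.36 CPM, a log2 fold change of 0.84 ± 0.42 and an unadjusted edgeR p of 0.0640.

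Values of several other pore subunits lay apart in the same direction without passing the test. Kcnq3 had 2.24, 2.27 and 2.28 CPM in SNA_Saline and 4.60, 3.00 and 3.69 CPM in SNA_NAC, Kcnma1 had 7.72, 10.1 and 8.48 against 15.0, 12.7 and 14.9 CPM, and Kcna2 had 13.3, 19.7 and 9.55 against 34.6, 23.7 and 31.4 CPM. In all, 12 members had groups that did not overlap, 15% beside 14.9% of all genes, 11 of them higher with NAC (13.8% beside 9.24%), and 17 with the offsets beside 16.7%. Approximate 95% intervals, taken from the SE with a normal distribution, remained wide. They ran from -0.20 to 2.39 for the log2 fold change of Kcna2 and from -0.12 to 1.53 for that of Kcnma1. Intervals that match the edgeR test would be wider.

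The comparison of Sham_H2O2 with Sham_Saline asked whether peroxide on the nerve changed the ganglion without an injury, and no member was called. EdgeR gave 0 members beside 0% of all genes, DESeq2 gave 0 beside 0.0254%, and an unadjusted edgeR p under 0.05 was found for 7 members (8.75%) beside 9.15% of all genes. The smallest p belonged to Kcne3, a single-pass auxiliary subunit, with 1.05, 0.758 and 0.746 CPM in Sham_Saline and 1.81, 1.27 and 1.75 CPM in Sham_H2O2. The groups did not overlap, and the log2 fold change was 0.85 ± 0.30 with an unadjusted edgeR p of 0.0111. Kcnj16, which pairs with Kcnj10 in glia, had 5.81, 3.45 and 5.29 against 6.34, 6.16 and 10.01 CPM, a log2 fold change of 0.61 ± 0.21 and an unadjusted edgeR p of 0.0119. Both had an edgeR adjusted p of 0.449, between 0.1095 and 0.973 over the alternatives. Groups did not overlap for 4 members, 5% beside 5.43% of all genes, and for 6 with the offsets, 7.5% beside 8.33%. Sham_H2O2 replicate 3, the library with the fewest counts, was the lowest of the 18 samples for 24 members, 30% beside 17.5% of all genes, and with the offsets for 13, 16.2% beside 14.9%.

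The comparison of DCA with LAM asked how an injury of the central branch acts, and no member was called. EdgeR gave 0 members beside 0% of all genes, DESeq2 gave 0 beside 0.0127%, and an unadjusted edgeR p under 0.05 was found for 7 members beside 5.04% of all genes. Kcnk12 (THIK-2, a 2-pore-domain channel that passes little current when studied alone) had the smallest p, at 0, 3 and 7 counts in LAM and 23, 8 and 29 counts in DCA. The groups did not overlap, but the values are a few reads, and the log2 fold change of 2.43 ± 0.61, with an unadjusted edgeR p of 0.000981, had an edgeR adjusted p of 0.624. Kcnk6, another 2-pore-domain channel, had 1.76, 2.39 and 1.98 CPM in LAM and 1.21, 1.20 and 0.806 CPM in DCA, a log2 fold change of -0.96 ± 0.28 and an unadjusted edgeR p of 0.00363. Groups did not overlap for 23 members, 28.8% beside 21.7% of all genes, with 18 higher (22.5% beside 11.9%) and 5 lower, and with the offsets also for 23 members beside 17.7%.

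The difference between the 2 injury responses, that is SNA_Saline minus Sham_Saline set against DCA minus LAM, was tested directly. It was called for Kcnk12 and Kcnk18, both lower in the sciatic response, which are 2.5% of the members beside 1.61% of all genes called and 0.388% called lower. Kcnk12 had 21, 69 and 15 counts in Sham_Saline and 4, 3 and 11 in SNA_Saline, so its sciatic values lay lower after injury and its DCA values above those of LAM. The difference in log2 fold change was -4.27 ± 0.80 (edgeR adjusted p = 0.0149), -2.94 ± 0.53 with the offsets (edgeR adjusted p = 0.0041), and DESeq2 gave it no adjusted p. For Kcnk18 it was -1.43 ± 0.34 (edgeR adjusted p = 0.0447) and -1.25 with the offsets (edgeR adjusted p = 0.0383), with 6.62, 6.29 and 5.67 CPM in LAM and 7.50, 8.54 and 8.10 CPM in DCA. Over the alternatives the adjusted p ran from 0.00310 to 0.0644 for Kcnk12, which kept its call in 30 of 32, and from 0.00438 to 0.137 for Kcnk18, which lost it in 21 of 34. These tallies too include the unfiltered fit and the threshold of 0.10, which could not lose a call. With the offsets 7 members were called beside 5.11% of all genes, among them Kcnh7, Kcnip1, Kcns3 and Kcnt1 next to the first 2. DESeq2 called 12 members for this difference beside 11% of all genes.

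The controls themselves were compared, since Sham_Saline and LAM stand for different operations on different tissue. Kcnk12 was the only member called, with a log2 fold change of 3.28 ± 0.57 in Sham_Saline over LAM (edgeR adjusted p = 0.0438) and 2.35 with the offsets (edgeR adjusted p = 0.0167), beside 0.0699% of all genes called without and 0.165% with the offsets. DESeq2 called 5 members, all higher in Sham_Saline, beside 7.25% of all genes, and gave Kcnk12 no adjusted p. Over the 20 alternatives that gave an adjusted p it ran from 0.0125 to 0.245, with a call in 9. Same-numbered Sham_Saline and LAM samples, which shared a lane, deviated together, and with the lane as a block the edgeR adjusted p of Kcnk12 was 0.086, which ends the call, or 0.0362 with the offsets too. Its LAM counts of 0, 3 and 7 lay in the range of its SNA_Saline counts (4, 3 and 11), and the difference between injuries above contains this difference between controls. Groups did not overlap for 30 members (37.5% beside 30.6% of all genes), 24 of them higher in Sham_Saline (30% beside 16.4%), and with the offsets for 25 members beside 24.5%. Without Sham_Saline replicate 1 the call count was 26 in place of 1, 32.5% beside 31.8% of all genes, and 8 with the offsets, 10% beside 5.04%.

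Across the 80 members the log2 fold change followed GC share in most comparisons, which is a description over genes that share libraries. Pearson's r with GC share was -0.43 in SNA_Saline, -0.68 in SNA_NAC and -0.45 in Sham_H2O2 against Sham_Saline, 0.53 in DCA against LAM and 0.54 in Sham_Saline against LAM. With the offsets these became 0.06, -0.01, 0.10, 0.11 and 0.08. The offsets are fitted over all genes to remove each sample's trend on GC share, so this flattening is largely built in. A change in the tissue that followed GC share would be removed with it. The 20 members richest in GC had a median log2 fold change of -0.65 in SNA_Saline and the 20 poorest (46.5% or less) one of -0.02, and with the offsets both stood near each other at -0.13 and -0.15. In SNA_NAC these medians were -0.62 and 0.12 without and -0.15 and -0.08 with the offsets. The medians of both contrasts thus depended on whether the offsets were used. Such genes as Kcns1, Kcng4 and Kcnn1 lost most of their difference with the correction, whereas Kcnk18 kept most of its own.

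**Figure D4:**
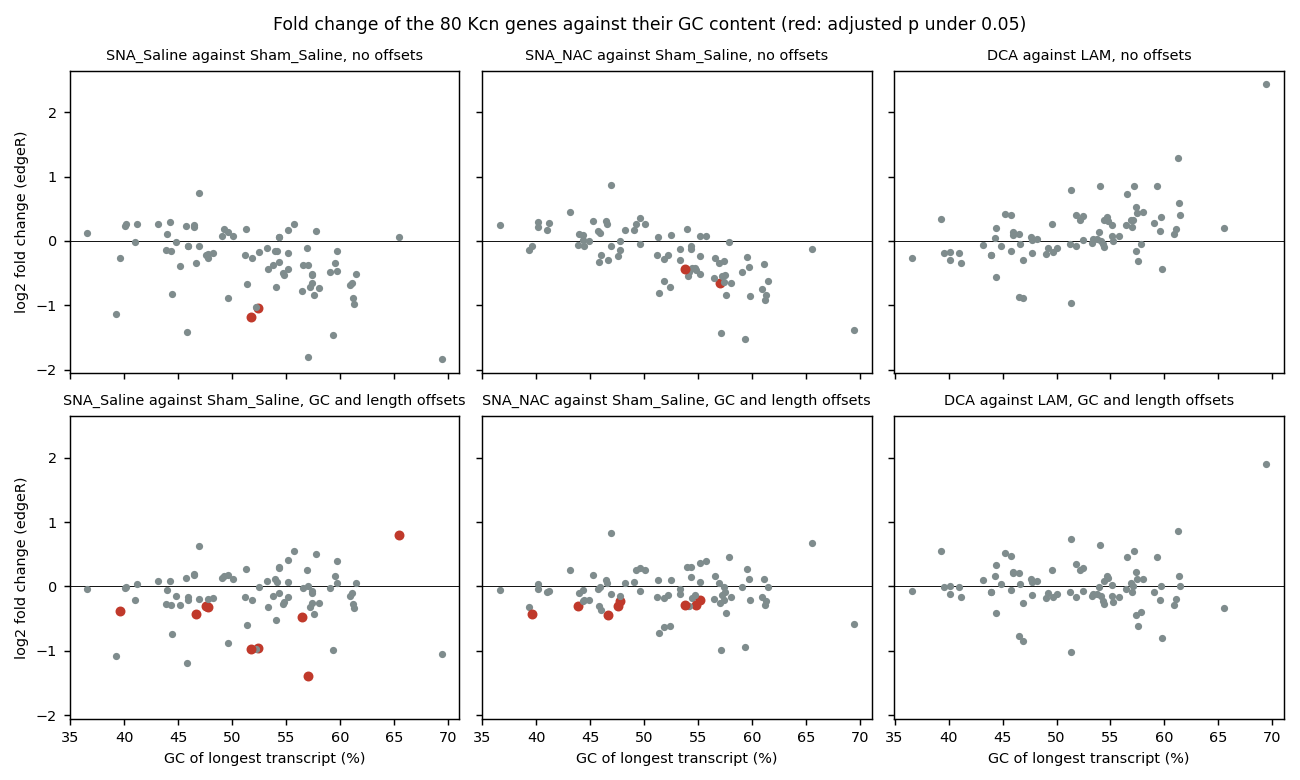
Log2 fold change of each member against the GC share of its longest transcript (percent) for SNA_Saline and SNA_NAC against Sham_Saline and DCA against LAM, without offsets (top) and with them (bottom); red points are called by edgeR. The downward trend of the upper SNA panels (r = -0.43 and -0.68) is flat below (0.06 and -0.01), where the offsets are fitted to remove it.

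**Figure D5:**
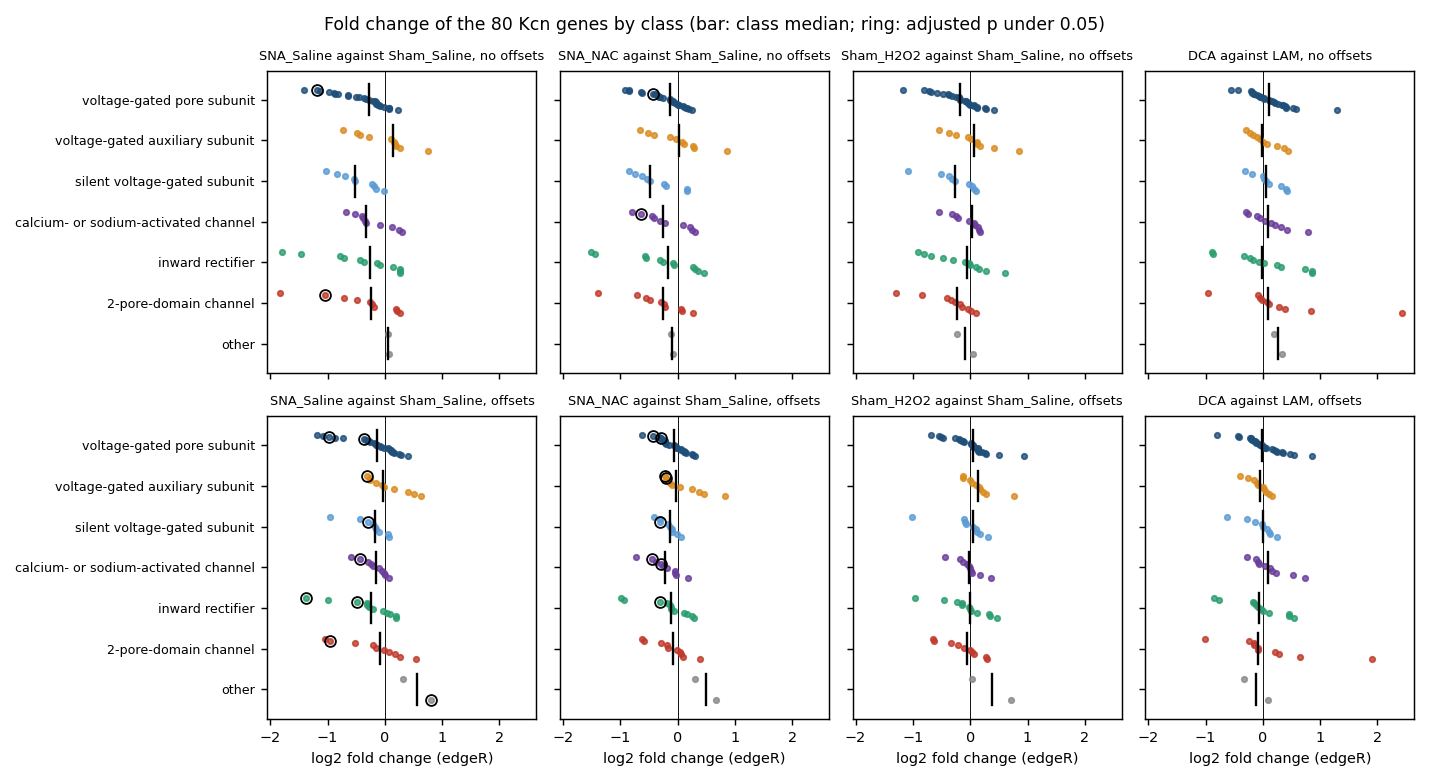
Log2 fold change of members by role class in 4 comparisons, without offsets (top) and with them (bottom), with a bar at each class median and a ring around called members. In SNA_Saline against Sham_Saline the silent subunits move from a median of -0.51 to -0.18.

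Genes that work with the channels were examined from a fixed list of 26 partners, of which 23 were measured (Lrrc26, Lrrc38 and Lrrc52 were not in the table). None was called in any contrast by edgeR without the offsets. With them Cntnap2, which anchors Kv1 channels beside nodes, was lower in SNA_Saline (log2 fold change -0.42, edgeR adjusted p = 0.0208) and in SNA_NAC (-0.35, edgeR adjusted p = 0.0466), and Dpp10, a Kv4 partner, was lower in SNA_NAC (-0.37, edgeR adjusted p = 0.0251). Of 10 regulators of channel transcription none was called without the offsets. With them Rest, a repressor of neuronal genes, was higher in SNA_Saline (0.48, edgeR adjusted p = 0.0234), with 12.9, 8.34 and 9.70 CPM in Sham_Saline and 14.4, 17.1 and 12.4 CPM in SNA_Saline. Its groups overlapped in CPM, since the highest sham sample lay above the lowest injured one.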

How the data were processed

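RNA was measured in 18 samples, 3 per group, each a pool of 2 mice, with stranded mRNA libraries read from one end per the labels' protocols. Per the submitters' processing notes the build was mm10 and the tools included TopHat2 2.0.12, Bowtie2 2.2.3, SAMtools 0.1.19, HTSeq 0.6.0 and edgeR 3.8.6; the role of each and the use of strand in counting are not given in the sources used here. The authors deposited whole-number read counts for 15730 genes, already without the lowest genes, and FPKM values for 45904 features. The libraries carried no molecular identifiers, so reads may repeat a molecule.

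From these counts edgeR 4.0.16, run in R 4.3.3, gave quasi-likelihood tests (TMM, filterByExpr, glmQLFit, glmQLFTest) in 1 unblocked fit of all 18 samples, with Benjamini-Hochberg adjustment over all genes. The filter kept all 15730 genes, and the common biological variation coefficient of edgeR stood at 17.4%. Standard errors were obtained from the size of the log2 fold change and the square root of F. Deposited FPKM served for levels between genes and, as log2(FPKM + 1) and log2(FPKM + 0.1) with limma 3.58.1, as alternatives. Offsets for GC share and length were natural splines with 5 degrees of freedom in each sample, from the longest GENCODE M21 transcript, found for 15648 genes and all 80 members. Other alternatives were DESeq2 1.42.0, filters, a fit of 1 contrast's samples alone, the lane (replicate number) as a block, a threshold of 0.10 and leaving out each sample; leaving out each sample with the offsets was added after seeing the data. An exact permutation test of 3 against 3 cannot go below 0.10, so single genes were tested through the fits over all genes. The fits were also run on simulated counts, and the outcome is not used as support for the results here. Figures used matplotlib 3.10.9.

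Named members were those called in any contrast, the 2 with the smallest p where none was called, the 3 highest in FPKM of each class, and a list known from sensory neurons, glia or vessels. Members called only with the offsets, those with groups apart between SNA_NAC and SNA_Saline, and those named for base composition were chosen after their values were seen. A few named members are not reported here, though counts, medians and correlations over members include them. The members and lists were chosen with earlier results of these data known. The replicate number equals the lane, and same-numbered samples are different animals. Their deviations from the group means correlated above 0.1 in all 3 pairs only for Sham_Saline and LAM among the 6 contrasts of 2 groups (0.24 to 0.42), so the blocked value stands beside that contrast.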

Additional observations from a re-analysis of the deposited data

Results flagged for a closer look

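The response to sciatic injury and the response to dorsal column injury differed, by the test of the difference itself, for 2 members. For Kcnk12 the log2 fold change against the group's own control was lower in the sciatic comparison by -4.27 (edgeR adjusted p = 0.0149), and for Kcnk18 by -1.43 (edgeR adjusted p = 0.0447). The call for Kcnk18 was lost in 21 of 34 alternatives and that for Kcnk12 in 2 of 32. With the GC and length offsets the difference was -2.94 for Kcnk12 (edgeR adjusted p = 0.0041) and -1.25 for Kcnk18 (edgeR adjusted p = 0.0383). Kcnk12 had between 0 and 69 counts in the libraries involved. Its GC share, 69.4%, was the highest of the members. The 69 counts were those of Sham_Saline replicate 2, the library with the highest GC slope, 0.69. The part of GC share in the size of this difference was not tested. Its difference contains that between the controls, where Sham_Saline stood above LAM and was itself called. DESeq2 gave Kcnk12 no adjusted p, and the filter of at least 10 counts in every sample left it out. The 32 alternatives are therefore those that gave it an adjusted p. Among them, and among the 34 of Kcnk18, the unfiltered fit and the threshold of 0.10 could not lose a call.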

How the results depend on the processing

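Counts of called members depended on the processing. For SNA_Saline against Sham_Saline (2 calls) there were 10 at an adjusted p under 0.10, 11 with DESeq2, 9 with GC and length offsets, 1 with either FPKM fit by limma, and 0 with only the groups of the contrast. Of all genes 5.23%, 5.49% and 7.44% were called in the first 3 of these, beside 12.5%, 13.8% and 11.2% of the members. The limma fits called 2.63% of all genes with log2(FPKM + 1) and 2.43% with log2(FPKM + 0.1), and the groups alone 0.42%. For SNA_NAC against Sham_Saline (2 calls) the same settings gave 11, 10, 8, 1 and 0, the first 3 beside 8.19%, 7.77% and 7.79% of all genes. Here the limma fits called 2.70% and 2.52% of all genes in the same order, and the groups alone 0.43%. For the difference between injuries (2 calls) there were 21 at 0.10, 12 with DESeq2, 7 with the offsets, 1 with either limma fit and 1 with at least 10 counts in every sample, the first 3 beside 15.2%, 10.95% and 5.11% of all genes. Its limma fits called 1.35% and 1.23% of all genes, and the fit with at least 10 counts 1.58%. For Sham_Saline against LAM (1 call) there were 5 with DESeq2 and 0 with at least 10 counts, limma on log2(FPKM + 1) or only its groups. Beside these, 7.25%, 0.0298%, 0.0318% and 0.0064% of all genes were called. Leaving out each replicate gave 0 to 15, 0 to 28, 0 to 23 and 0 to 26 calls in these 4 contrasts, and with the offsets 3 to 12, 1 to 17, 2 to 11 and 0 to 8. The share of all genes called ran from 1.11% to 16.2%, 1.37% to 37.3%, 0.35% to 29.2% and 0.0254% to 31.8% in those fits without the offsets. With the offsets it ran from 3.45% to 10.1%, 3.92% to 20.6%, 2.2% to 12.3% and 0.0318% to 5.04%. The other 3 contrasts gave 0 in every such fit.

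In a fit with replicate block (lane number) the calls were 0, 0, 1 and 0 in the same 4 contrasts. Of all genes 2.03%, 2.57%, 0.75% and 0.0381% were called there. With the block and the offsets the calls were 8, 6, 4 and 1, beside 6.44%, 7.2%, 4.08% and 0.146% of all genes. Correlations of same-numbered samples ran from -0.65 to 0.095 between SNA_Saline and Sham_Saline, -0.53 to -0.15 between SNA_NAC and Sham_Saline, -0.14 to 0.42 between SNA_NAC and SNA_Saline, 0.03 to 0.56 between Sham_H2O2 and Sham_Saline, -0.23 to 0.23 between DCA and LAM and 0.24 to 0.42 between Sham_Saline and LAM. Only the last had all 3 above 0.1, and its call was lost under the block without the offsets but kept under the block with them.

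Leaving out a replicate moved the log2 fold change of Kcnh7 between -0.46 and 0.16 in SNA_Saline, -0.27 and 0.35 in SNA_NAC and -0.27 and 0.35 in the difference. It was positive without Sham_Saline replicate 1 in SNA_Saline (0.16), SNA_NAC (0.35) and the difference (0.35), and in the difference without SNA_Saline replicate 3 (0.04), DCA replicate 2 (0.11) or LAM replicate 2 (0.0062). Kcnj3 in SNA_NAC ranged from -0.22 and was 0.17 without Sham_Saline replicate 1 and 0.0031 without SNA_NAC replicate 1, and Kcnmb4os2 in SNA_Saline ranged up to 0.42 and was -0.31 without Sham_Saline replicate 1 and -0.08 without SNA_Saline replicate 3. The cause was not tested. The median over members stayed negative in every alternative for SNA_Saline (-0.29 to -0.03) and SNA_NAC (-0.26 to -0.03). Depth limits the 16 members with under 10 counts in some library.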

Other observations

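The deposited FPKM table lists 17 further Kcn features, of which 16 had a mean FPKM under 0.3. The remaining one, at 3.87, is a second entry of the counted member Kcnb2, with values in a fixed ratio to it. In RefSeq promoters of the GRCm38 table, which matched 57 members with 80 promoters, the AP-1 motif TGANTCA was found on either strand of the 250 bases upstream in 4 of 80 (5%), at Kcne3, Kcnip3, Kcnip4 and Kcnk2, beside 6.75% of 32851 promoters. The cAMP response element TGACGTCA was found in 0 of them beside 1.55%. Such a match is a description of letters in a window and no site.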
